A study of Mus musculus with 14 samples.

Results

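The mitochondrial ribosomal protein genes are the nuclear genes whose mouse symbols start with Mrpl, for the large subunit, or Mrps, for the small subunit, followed by a number and at most 1 letter. Among the 52636 gene identifiers of the deposited count table, 78 protein-coding genes carried such a symbol, 49 of them Mrpl and 29 Mrps, on 17 chromosomes. All 78 passed the filter on low counts and were among the 11994 genes tested, and none had a count of 0 in any library. Their total counts over the 14 libraries ran from 270 to 11778, with a median of 1810.

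RNA came from leukemic progenitors of a mouse acute myeloid leukemia with mutant IDH1, which the labels call I1DN and which was transplanted into recipient mice. AG120 (ivosidenib) inhibits the mutant enzyme, which makes 2-hydroxyglutarate. The groups were relapse (n = 4), from mice whose disease had returned after 28 days of AG120; AG120 for 14 days (n = 2) with vehicle for 14 days (n = 2); and AG120 for 5 days (n = 3) with vehicle for 5 days (n = 3). All 5 groups held the same transplanted leukemia, all libraries were of cells sorted as cKit positive and CD11b negative from single mice, and strain and age of the mice are not stated in the labels.

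Mitochondria have their own ribosome, which translates the few messenger RNAs of mitochondrial DNA into membrane subunits of the respiratory chain and ATP synthase. Its ribosomal RNAs are encoded in mitochondrial DNA, but every protein of it is encoded in the nucleus, made in the cytosol and imported. Some of these proteins have bacterial counterparts and others are found only in mitochondria. In blood cell formation, mitochondrial translation is known to be needed for red cell precursors, and acute myeloid leukemia cells have been described as sensitive to its inhibition.

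The libraries were read at transcript 3′ ends, so longer transcripts do not gain more reads, and levels are given here as CPM, the counts of a gene scaled to the same effective library size, and compared within a gene. Ribosomal RNA gene models held 50.9% to 74.8% of the counts, which left 1259982 (AG120 day 14 replicate 1) to 3358874 (vehicle day 5 replicate 3) counts for other genes. Kit was detected in every library, at 11.6 to 52.0 CPM, and Itgam, which encodes the CD11b that the sort excluded, lay between 2.56 and 53.5 CPM. Relapse replicates 1 and 4 resembled each other across all genes, as did replicates 2 and 3, with a chi-square per degree of freedom between their counts of 3.95 and 6.46. The remaining relapse pairs had values of 13.0 to 17.6. Results on relapse are therefore also given without either of these pairs. In bulk RNA of sorted cells, a change in the make-up of the cells and a change in RNA per cell cannot be told apart.

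The stretch of 150 bases before the transcription start is shown for 4 of the genes with the largest increases or smallest adjusted p at day 5. Mrpl41 and Mrps5, which met the same rules, are not shown. The 4 are examples that hold matches and do not stand for the 78 genes. The sequences come from RefSeq (GRCm38.p6), which matched 69 of the 78 genes, and are written 5′ to 3′ on the strand of the gene. Capitals mark exact matches on either strand to letters bound by factors known from genes of mitochondrial proteins: GCGCATGCG for NRF1, CCGGAAG for ETS factors such as GABPA, and GGGCGG for SP1. Mrpl52 (chr14:54426759-54426908, plus strand) rose most at both days and has a reversed ETS match, Mrpl9 (chr3:94443186-94443335, plus strand) has a pair of NRF1 matches that overlap, Mrpl22 (chr11:58171514-58171663, plus strand) has an ETS and an NRF1 match, and Mrps22 (chr9:98601680-98601829, minus strand) has an SP1 and an ETS match.
Mrpl52: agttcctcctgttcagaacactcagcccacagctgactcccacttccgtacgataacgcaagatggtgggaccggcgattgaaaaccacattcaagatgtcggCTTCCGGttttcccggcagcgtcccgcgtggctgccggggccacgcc
Mrpl9: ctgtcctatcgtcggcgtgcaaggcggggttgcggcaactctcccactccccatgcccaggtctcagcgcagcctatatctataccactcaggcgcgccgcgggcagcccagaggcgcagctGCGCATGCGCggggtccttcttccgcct
Mrpl22: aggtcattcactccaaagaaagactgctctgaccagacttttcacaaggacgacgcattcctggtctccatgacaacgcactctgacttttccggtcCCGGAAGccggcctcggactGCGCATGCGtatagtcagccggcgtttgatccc
Mrps22: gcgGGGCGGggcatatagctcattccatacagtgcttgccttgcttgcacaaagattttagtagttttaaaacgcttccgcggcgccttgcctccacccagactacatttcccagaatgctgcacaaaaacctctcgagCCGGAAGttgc

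In windows of 300 bases, from 250 before to 50 after the start, the ETS letters were present in 26 of the 69 matched genes (37.7%), against 9.93% of the 27025 genes with a window. The NRF1 letters were present in 7 (10.1%), against 1.95% of all genes. Letters of YY1 (AAGATGGC) were present in 12 (17.4%, against 3.19%), those of SP1 in 34 (49.3%, against 38.2%), and the E-box CACGTG, which MYC can bind, in 5 (7.25%, against 8.09%). The ETS letters were found in 14 of 40 matched genes that rose at day 5 and in 12 of the 29 that did not pass, and 16 of the 69 held none of the 5 motifs. The NRF1 letters were found in 6 of the 40 and in 1 of the 29. These are matches of letters, not binding sites.

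After 5 days of AG120, messenger RNA of both ribosomal subunits was more abundant. Of the 78 genes, 45 rose and 0 fell (edgeR's quasi-likelihood test, adjusted p under the threshold of 0.05), where 20.1% of all genes tested rose and 39.4% changed in either direction. At an unadjusted p under 0.05, 52 of the 78 differed (48% of all genes). The 45 were 27 of 49 Mrpl and 18 of 29 Mrps genes, and the median log2 fold change was 0.56 for Mrpl and 0.53 for Mrps genes, against −0.00 over all genes tested. Most of the changes were smaller than 2-fold, a size that 6 of the 45 exceeded. The log2 fold change was above 0 in 74 of the 78, against 50% of all genes.

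The summed level of the 49 Mrpl genes was 1723, 1604 and 1748 CPM in the AG120 day 5 libraries, against 1067, 1125 and 1210 CPM in vehicle day 5. For the 29 Mrps genes it was 814, 811 and 834 CPM in AG120 day 5, against 530, 587 and 590 CPM in vehicle day 5. In both sums all 3 AG120 libraries lay above all 3 vehicle libraries. Gene by gene, the 3 AG120 libraries were all above the 3 vehicle libraries for 61 of 78 genes (30.1% of all genes tested) and all below for 1, Mrpl23 (29.8%).

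**Figure D1:**
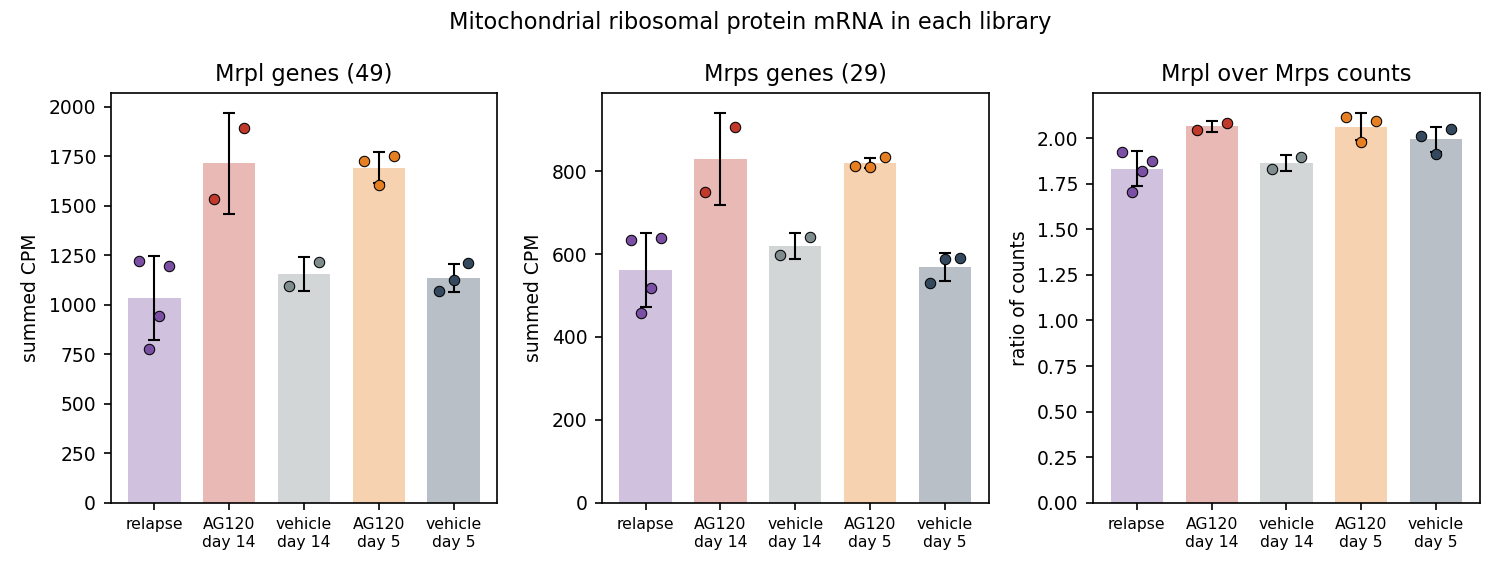
Summed CPM (y axis) of the 49 Mrpl genes on the left and the 29 Mrps genes in the middle, and the ratio of Mrpl to Mrps counts on the right, with 1 point per library, bars at group means and error bars of 1 SD. The 5 AG120 libraries lie above all vehicle and relapse libraries in both sums, from 1534 to 1893 CPM for Mrpl genes, and relapse replicates 2 and 3 are the lowest of all libraries.

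Mrpl52, a large subunit protein with no bacterial counterpart, changed most. It was at 66.1, 66.2 and 70.6 CPM in AG120 day 5 and at 20.5, 19.3 and 21.2 CPM in vehicle day 5, a log2 fold change of 1.73 ± 0.17 (SE, adjusted p = 7.9e-07). The groups were far apart and each was narrow, at 67.6 ± 2.55 CPM in AG120 day 5 and 20.4 ± 0.952 CPM in vehicle day 5 (SD, n = 3 each). Mrpl41, another large subunit protein of mitochondria alone, rose by 1.06 ± 0.25 (adjusted p = 0.00364). Of the 21 large subunit proteins grouped as mitochondrion-specific, 9 rose at day 5 (42.9%, against 20.1% of all genes tested). That group includes Mrps18a, although it is a relative of bacterial S18.

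Among proteins of the large subunit with bacterial counterparts, 20 of 30 rose at day 5 (66.7%, against 20.1% of all genes tested). Mrpl9 was at 21.0, 18.6 and 19.8 CPM in AG120 day 5, against 8.26, 11.2 and 9.46 CPM in vehicle day 5, and Mrpl22, which lines the exit tunnel for new peptides in bacteria, was at 8.99, 9.58 and 11.3 CPM against 3.84, 5.08 and 5.39 CPM. The groups did not overlap for either gene, and the log2 fold changes were 1.04 ± 0.17 for Mrpl9 and 1.05 ± 0.24 for Mrpl22 (SE, adjusted p = 0.000119 and 0.0025). Mrpl12 had the highest total count of the 78 genes, 11778. It is the counterpart of the bacterial stalk protein that recruits translation factors, and in human cells it has also been found bound to the mitochondrial RNA polymerase.

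Mrpl12 was at 205, 174 and 200.1 CPM in AG120 day 5, against 94.1, 97.0 and 111 CPM in vehicle day 5. All AG120 libraries lay above all vehicle libraries, and the log2 fold change was 0.94 ± 0.18 (SE, adjusted p = 0.00051). Mrpl12 alone held 7.67% ± 0.44 of the counts of the 78 genes in AG120 day 5 and 5.91% ± 0.243 in vehicle day 5 (SD, n = 3 each). Without it the summed level was still higher, at 2318 ± 71.5 CPM in AG120 day 5 and 1602 ± 94.2 CPM in vehicle day 5 (SD, n = 3 each). Mrpl10, which anchors that protein to the ribosome in bacteria, was at 0.40 ± 0.16 (log2, SE, adjusted p = 0.0485), a call that was lost under 18 of 27 alternatives, DESeq2 and the omission of any 1 day 5 library among them (adjusted p from 0.00768 to 0.943).

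In the small subunit, 12 of 16 proteins with bacterial counterparts rose at day 5 (75%), as did 3 of 10 grouped as mitochondrion-specific (30%). The latter group includes Mrps18b, although it is a relative of bacterial S18. Of all genes tested 20.1% rose, and the 30% rests on only 3 genes. Mrps5 was at 57.7, 54.6 and 57.5 CPM in AG120 day 5, against 25.8, 29.4 and 26.6 CPM in vehicle day 5. Mrps22, a protein of mitochondria alone, was at 15.5, 14.1 and 10.7 CPM in AG120 day 5, against 5.13, 7.63 and 4.62 CPM in vehicle day 5. Neither gene's groups overlapped, and the log2 fold changes were 1.05 ± 0.15 for Mrps5 and 1.21 ± 0.22 for Mrps22 (SE, adjusted p = 4.8e-05 and 0.000357). Mrps12, the counterpart of the protein at the bacterial decoding centre, rose by 0.50 ± 0.16 (SE, adjusted p = 0.0213).

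Some symbols do not match the place of their protein. Mrps30 and Mrps18a are named for the small subunit but sit in the large subunit of the mammalian ribosome, and at day 5 they were at 0.36 ± 0.14 and 0.53 ± 0.15 (log2, SE, adjusted p = 0.0469 and 0.0109). The call of Mrps30 was lost under 18 of 27 alternatives, DESeq2 among them (adjusted p from 0.0232 to 0.953). Of the other relatives of bacterial S18, Mrps18b rose by 0.86 ± 0.20 (adjusted p = 0.00278), while Mrps18c was at 0.25 ± 0.22 (SE, adjusted p = 0.385). Mrps36 is now known as a subunit of the 2-oxoglutarate dehydrogenase complex. It was at 16.5, 20.8 and 16.4 CPM in AG120 day 5 and at 9.11, 10.5 and 12.2 CPM in vehicle day 5, a log2 fold change of 0.75 ± 0.25 (SE, adjusted p = 0.0236).

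**Figure D2:**
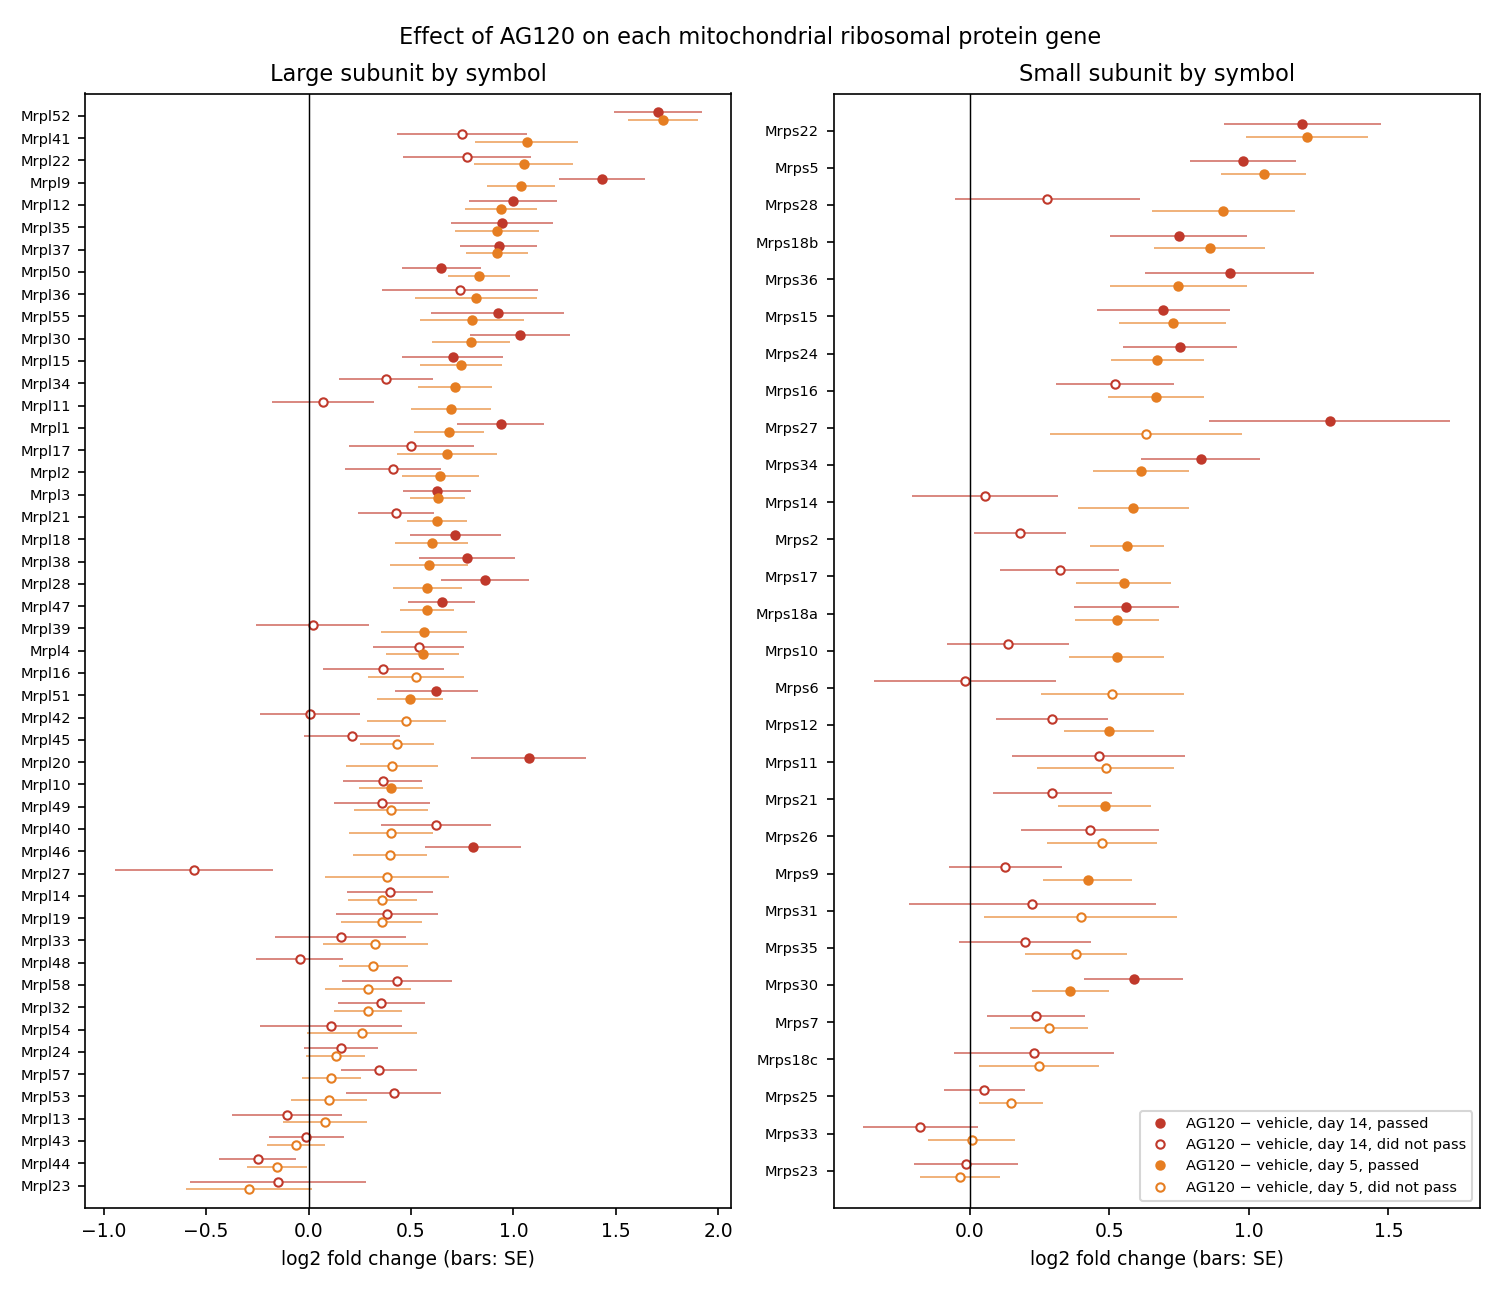
Log2 fold change of AG120 over vehicle (x axis, bars of 1 SE) for each of the 49 Mrpl genes (left) and 29 Mrps genes (right), at day 14 (red) and day 5 (orange), filled where the gene passed edgeR's quasi-likelihood test. Genes are ordered by the change at day 5, from Mrpl52 at 1.73 down to Mrpl23 at −0.29, and no filled point lies below 0.

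After 14 days of AG120, genes of both subunits were again higher than in vehicle. Of the 78, 28 rose and 0 fell (edgeR's quasi-likelihood test), 18 Mrpl and 10 Mrps genes, where 16.8% of all genes tested rose and 34.7% changed. At an unadjusted p under 0.05, 34 of the 78 differed (44.4% of all genes), and 69 of the 78 had a log2 fold change above 0 (49.6%). The median log2 fold change was 0.43 for Mrpl genes and 0.30 for Mrps genes (−0.01 over all genes), and that of the Mrps genes was −0.0785 when libraries were scaled by their totals alone. The summed level of the 49 Mrpl genes was 1534 and 1893 CPM in AG120 day 14, against 1093 and 1216 CPM in vehicle day 14. That of the 29 Mrps genes was 750.4 and 908 CPM in AG120 day 14, against 597 and 641 CPM in vehicle day 14. Both AG120 libraries lay above both vehicle libraries in each sum, and AG120 replicate 2 lay above replicate 1. Gene by gene, both AG120 libraries were above both vehicle libraries for 50 of 78 genes (34.2% of all genes) and below both for Mrpl27 and Mrpl44 (36.3%).

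Mrpl52 was again the gene with the largest change, at 52.5 and 72.9 CPM in AG120 day 14 and at 17.3 and 21.3 CPM in vehicle day 14, a log2 fold change of 1.71 ± 0.21 (SE, adjusted p = 1.3e-05). Mrpl9 was at 24.2 and 26.0 CPM in AG120 day 14 and at 9.23 and 9.40 CPM in vehicle day 14, with a log2 fold change of 1.43 ± 0.21 (SE, adjusted p = 5.8e-05). In both genes the 2 groups were far apart. Exons of Mrpl9 overlap those of Oaz3 on the other strand, and whether counting used strand is not given, so its counts are uncertain. Oaz3 was at 1.11 at day 5 and 1.14 at day 14 (log2) and passed at neither day. Mrps27, a small subunit protein with an RNA-binding repeat fold, was at only 6.27 and 5.00 CPM in AG120 day 14, against 2.05 and 2.49 CPM in vehicle day 14, and rose by 1.29 ± 0.43 (SE, adjusted p = 0.028).

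Mrps22 (1.19 ± 0.28), Mrpl12 (1.00 ± 0.22), Mrps5 (0.98 ± 0.19) and Mrps36 (0.93 ± 0.30) rose on the log2 scale by amounts near those at day 5. Mrpl20, the counterpart of a bacterial assembly protein of the large subunit, rose by 1.08 ± 0.28 (SE, adjusted p = 0.00807). By role, 12 of 30 large and 3 of 16 small subunit proteins with bacterial counterparts rose at day 14. So did 8 of 21 large and 4 of 10 small subunit proteins grouped as mitochondrion-specific. The 3 of 16 are 18.8%, near the 16.8% of all genes that rose. The counts at day 14 rest on few mice, and leaving out 1 of these libraries left 1 mouse in its group. The median log2 fold change of the 78 genes at day 14 was then 0.29 without AG120 replicate 2 and 0.56 without AG120 replicate 1. It was 0.38 without vehicle replicate 1 and 0.49 without vehicle replicate 2. The medians of all genes in these fits were −0.07, −0.01, −0.02 and 0.00. At day 5, 27 genes rose without vehicle replicate 1, where 32% of all genes passed in either direction.

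Red cell marker genes moved with AG120 too. The summed level of 24 of them was 109 to 613 CPM in relapse, 2758 to 3081 CPM in AG120 day 14, 238 to 292 CPM in vehicle day 14, 1095 to 1256 CPM in AG120 day 5 and 212 to 276 CPM in vehicle day 5. Of the 24, 20 rose at day 14 and 16 at day 5, and Kel, at 0 in 4 libraries, was the one most often undetected. Between the AG120 groups the mean red cell sum was 2919 CPM at day 14 and 1159 CPM at day 5, while the mean sum of the 78 genes was 2543 CPM at day 14 and 2511 CPM at day 5. Of Kit, Itgam, Cd34 and Ptprc, 3 of 4 fell at each day. Their sum, which joins the sort's selected marker (Kit) with its excluded one (Itgam), was 310 to 378 CPM in relapse. It was 40.6 to 45.2 CPM in AG120 day 14 and 281 to 299 CPM in vehicle day 14. In AG120 day 5 the sum was 56.4 to 70.1 CPM and in vehicle day 5 it was 287 to 296 CPM. The lowest Kit level of all libraries, 11.6 CPM, was in an AG120 library. At day 5, 4 of 12 neutrophil, 3 of 5 measured monocyte, 4 of 5 megakaryocyte, 2 of 4 mast cell and 1 of 1 lymphoid markers fell and 0 rose. At day 14, 2 of the 12 neutrophil, 2 of the 5 monocyte, 1 of the 5 megakaryocyte, 3 of the 4 mast cell markers and the lymphoid marker fell, and 1 megakaryocyte marker rose. The mean neutrophil sum was 1648 CPM in AG120 day 14 and 2028 CPM in vehicle day 14, and 487 CPM in AG120 day 5 and 1732 CPM in vehicle day 5. Of all genes tested, 20.1% rose and 19.3% fell at day 5, and 16.8% rose and 17.9% fell at day 14. The shares of neutrophil (16.7%) and megakaryocyte markers (20%) that fell at day 14 were near that of all genes. The median log2 fold change of the 12 neutrophil markers at day 14 was 0.29, with 7 of the 12 above 0. The part of other cells' RNA in the change of the 78 genes was not tested.

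Of the 78 genes, 25 rose at both days (12.3% of all genes tested), 20 passed at day 5 only, 3 at day 14 only (Mrpl20, Mrpl46 and Mrps27) and 30 at neither. The day 5 and day 14 libraries are separate mice, and across the 78 genes, which are not independent replicates, the 2 log2 fold changes correlated at r = 0.745 and rho = 0.713. No gene of the 78 passed the test of the difference between the days (edgeR's quasi-likelihood test, 0.934% of all genes passed), 0 had an unadjusted p under 0.05 (12.4% of all genes had one), and 0 passed with DESeq2 or limma-voom. Fitted on the 10 AG120 and vehicle libraries alone, Mrpl20 (0.69, adjusted p = 0.0112) and Mrpl27 (−0.92, adjusted p = 0.0434) passed by edgeR. In that fit 7.43% of all genes passed. The median difference, day 14 effect minus day 5 effect, was −0.04 log2 units. Mrpl11 had the smallest p, with a log2 fold change of 0.07 ± 0.25 at day 14 and 0.69 ± 0.20 at day 5 and a difference of −0.63 ± 0.32 (SE, adjusted p = 0.437). Vehicle day 14 and vehicle day 5 differed for 0 of the 78 genes and for 0% of all genes (edgeR's quasi-likelihood test, and likewise 0 of the 78 with DESeq2 or limma-voom), and 1 of the 78, Mrps2, had an unadjusted p under 0.05 (4.79% of all genes).

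The remaining genes passed less often. Passing in neither AG120 comparison nor in relapse against AG120 were 14 genes: Mrpl13, Mrpl23, Mrpl24, Mrpl27, Mrpl32, Mrpl33, Mrpl43, Mrpl44, Mrpl45, Mrpl54, Mrps23, Mrps25, Mrps31 and Mrps33. Mrps25, a mitochondrial protein of the small subunit, had one of the 3 smallest changes in each of these comparisons among genes with a mean log2 CPM of at least 5. It was at 61.6, 71.5, 66.6 and 57.4 CPM in relapse, 60.3 and 65.8 CPM in AG120 day 14 and 56.1 and 65.6 CPM in vehicle day 14. It was at 60.2, 63.8 and 66.6 CPM in AG120 day 5 and 56.7, 55.6 and 59.7 CPM in vehicle day 5. The AG120 day 5 libraries were still all above vehicle, but the log2 fold change was 0.15 ± 0.12 (SE, adjusted p = 0.328), with a 95% interval of −0.10 to 0.39.

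The 3′ end of Mrps25 overlaps Nr2c2 on the other strand, and whether counting used strand is not given in the sources used here, so its counts are uncertain. Mrpl44, with an RNA-binding fold like that of bacterial RNase III, was at 17.7, 21.3 and 21.1 CPM in AG120 day 5 and at 20.2, 21.9 and 24.6 CPM in vehicle day 5. Its groups overlapped, and the log2 fold change was −0.15 ± 0.14 (SE, adjusted p = 0.421) at day 5 and −0.25 ± 0.19 (SE, adjusted p = 0.329) at day 14. Mrpl58, a peptidyl-tRNA hydrolase that rescues stalled mitochondrial ribosomes, was at 0.29 ± 0.21 at day 5 and 0.43 ± 0.27 at day 14 (log2, SE, adjusted p = 0.29 and 0.228).

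**Figure D3:**
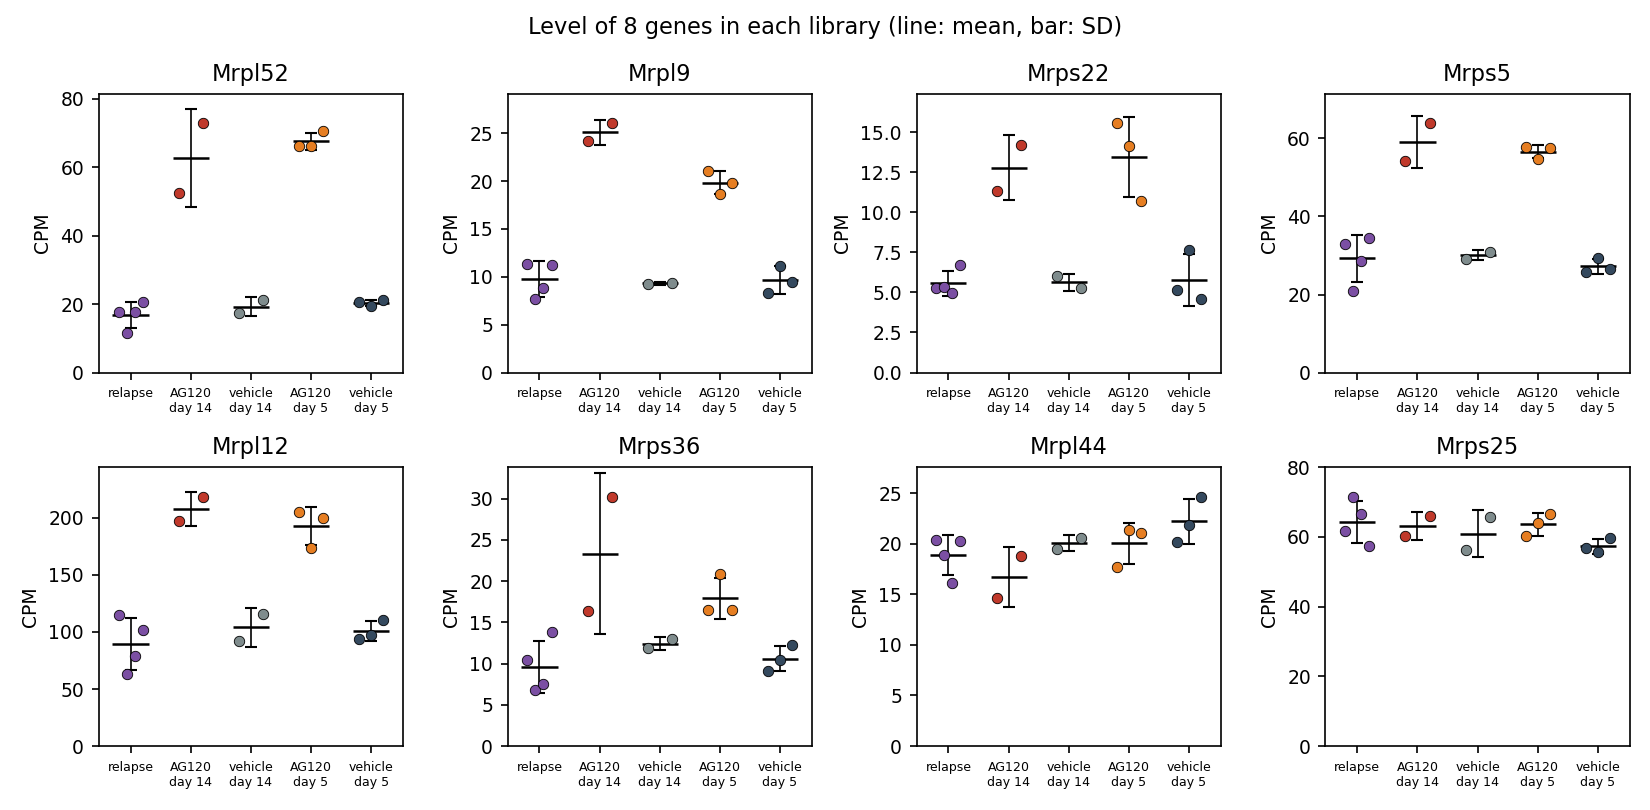
CPM (y axis, from 0) of 8 genes in each library by group, with a line at the mean and error bars of 1 SD. AG120 libraries stand above relapse and vehicle for Mrpl52, Mrpl9, Mrps22, Mrps5, Mrpl12 and Mrps36, whereas for Mrpl44 and Mrps25 the AG120 libraries as a whole overlap the relapse and vehicle libraries.

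Relapse was set against the 5 vehicle libraries and then against the 5 AG120 libraries. None of the 78 genes passed the test of relapse against vehicle (edgeR's quasi-likelihood test, 0.183% of all genes passed, 0.1% higher and 0.0834% lower), and 4 had an unadjusted p under 0.05, namely Mrpl4, Mrpl42, Mrpl51 and Mrpl53 (11.6% of all genes had one). With DESeq2 or limma-voom 0 passed. The median log2 fold change was −0.13 for Mrpl and −0.09 for Mrps genes, and the 95% interval of 77 of the 78 genes lay within 1 log2 unit of 0. Mrpl36 was the exception, at −0.51 with an interval of −1.08 to 0.06. The 4 relapse libraries lay outside the range of the 5 vehicle libraries for 1 gene, Mrps23, which was lower (1.97% of all genes were lower in this way and 1.98% higher).

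Against the AG120 groups, 59 of the 78 genes were lower in relapse and 0 higher, 37 Mrpl and 22 Mrps genes, where 26.1% of all genes tested were lower and 54% changed. This comparison shares its AG120 libraries with those above. The median log2 fold change was −0.60 for Mrpl and −0.56 for Mrps genes (0.01 over all genes), and for 40 genes all relapse libraries lay below all AG120 libraries (18.9% of all genes). Mrpl52 was at 17.6, 11.6, 17.7 and 20.6 CPM in relapse, against 52.5 to 72.9 CPM in the 5 AG120 libraries, and fell by 1.94 ± 0.15 on the log2 scale (SE, adjusted p = 1.5e-08). Mrpl37, a large subunit protein of mitochondria alone, was at 27.0, 18.0, 23.3 and 27.4 CPM in relapse, against 47.4 to 62.8 CPM in AG120, and fell by 1.18 ± 0.13 (SE, adjusted p = 1.1e-06). Both genes were below every AG120 library in all 4 relapse libraries. Without relapse replicates 2 and 3 the change was −1.72 for Mrpl52 and −0.96 for Mrpl37, and without replicates 1 and 4 it was −2.13 and −1.39.

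The relapse libraries were unequal. The summed Mrpl level was 1222, 778.3, 945 and 1197 CPM in replicates 1 to 4, and the summed Mrps level was 634, 457, 519 and 638 CPM. Replicate 2 was the lowest of the 4 for 59 of the 78 genes, replicate 3 for 14, replicate 1 for 4 and replicate 4 for 1. Mrpl12, at 115, 63.1, 78.6 and 102 CPM, had the same order. For Mrpl genes, replicate 4 lay within the vehicle range of 1067 to 1216 CPM, replicate 1 just above it and replicates 2 and 3 below it.

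The comparison with vehicle rests on this mixture. The pairs left out below were chosen after the data were seen, because their libraries are alike. That choice narrows the spread in advance, so counts and p-values in these settings are descriptive only. Against vehicle, 13.2% of all genes were called without replicates 2 and 3 and 14.8% without replicates 1 and 4. With all 4 relapse libraries the share was 0.183%. Without replicates 2 and 3, 4 genes were higher than vehicle (Mrpl4, Mrpl33, Mrps15 and Mrps31, by 0.38 to 0.71 log2 units) and 0 lower, with a median of 0.12 over the 78 genes, and 8.21% of all genes were higher in that setting and 5.03% lower. Without replicates 1 and 4, 25 genes were lower and 0 higher, with a median of −0.38, and 7.55% of all genes were lower and 7.24% higher. Among the 25 were Mrpl36, which fell by 1.09 ± 0.23, and Mrps6, which fell by 0.98 ± 0.18 (SE, adjusted p = 0.00382 and 0.00115 by edgeR). Against AG120, 36 genes were lower and 1, Mrpl27, higher without replicates 2 and 3, and 69 were lower without replicates 1 and 4, with medians of −0.34 and −0.85. Of all genes 23% and 28.5% were lower in these settings. In replicates 1 to 4 the summed level of 24 red cell marker genes was 109, 279, 613 and 115 CPM and that of 6 megakaryocyte markers 78.0, 275, 260.2 and 96.5 CPM. That of 12 neutrophil markers was 2742, 1760, 715 and 1912 CPM. Kit was at 18.9, 50.2, 52.0 and 19.2 CPM in these replicates, against 33.5 to 37.8 CPM in vehicle, and Itgam at 53.5, 13.9, 16.1 and 35.5 CPM, against 10.6 to 18.0 CPM in vehicle. Replicates 1 and 4 were thus below every vehicle library in Kit and above every one in Itgam, against the direction of the sort. The sum of 84 nuclear respiratory chain genes was 4253, 2840, 3339 and 4392 CPM, in the same order as the Mrps sum. The part of other cells in the difference between these libraries was not tested.

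**Figure D4:**
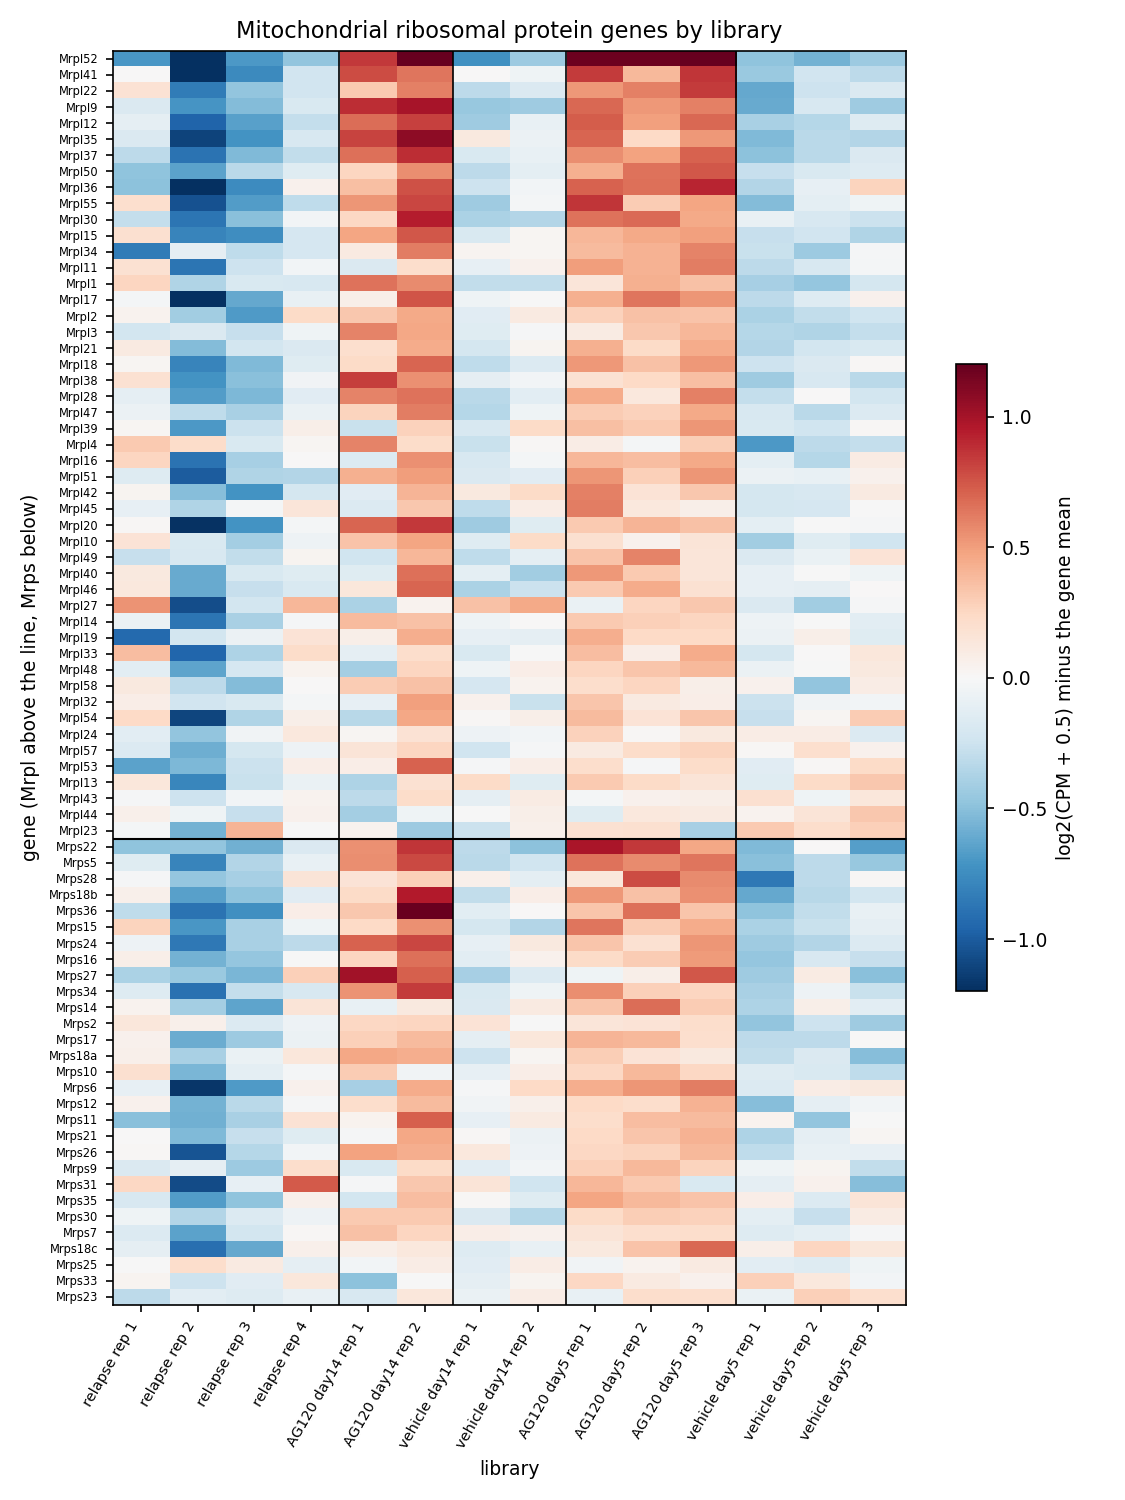
Log2(CPM + 0.5) minus the gene's mean over all 14 libraries, for the 49 Mrpl genes above the line and the 29 Mrps genes below it (rows) in each library (columns), with colours limited to 1.2 either way. The AG120 columns are mostly red, the vehicle columns pale, and relapse replicate 2 is the bluest column, the lowest of its group for 59 genes.

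The ratio of Mrpl to Mrps counts, which goes by symbol and not by place in the ribosome, lay between 1.70 and 2.12 in all 14 libraries. Mrpl counts were 2.06 ± 0.0744 times Mrps counts in AG120 day 5 and 1.99 ± 0.0706 times in vehicle day 5 (SD, n = 3 each). The ratio was 2.07 ± 0.0283 in AG120 day 14 and 1.86 ± 0.0453 in vehicle day 14 (SD, n = 2 each), and 1.83 ± 0.0959 in relapse (SD, n = 4). At day 5 the groups overlapped, and at day 14 both AG120 libraries (2.04 and 2.08) were above both vehicle libraries (1.83 and 1.90), where an exact two-sided permutation test of 2 against 2 libraries cannot give a p below 0.333. Of all counts outside ribosomal RNA models, the 78 genes took 0.436% ± 0.0694 in relapse (SD, n = 4), 0.657% ± 0.0706 in AG120 day 14 and 0.492% ± 0.0269 in vehicle day 14 (SD, n = 2 each). They took 0.647% ± 0.0162 in AG120 day 5 and 0.469% ± 0.0214 in vehicle day 5 (SD, n = 3 each).

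Proteins of the mitochondrial ribosome with other names were also measured. Of Dap3, a GTP-binding protein of the small subunit, Ptcd3, Aurkaip1, Chchd1 and Gadd45gip1, 4 of 5 rose at day 5 and 2 at day 14. In relapse 5 of 5 were lower than in AG120 (4 without relapse replicates 2 and 3, 5 without replicates 1 and 4). Of all genes tested 20.1% rose at day 5, 16.8% rose at day 14 and 26.1% were lower in relapse than in AG120. Dap3 was at 50.4, 66.5 and 51.1 CPM in AG120 day 5, against 25.6, 28.4 and 31.1 CPM in vehicle day 5, without overlap. Its log2 fold change was 0.98 ± 0.15 at day 5 and 1.11 ± 0.19 at day 14 (SE, adjusted p = 0.000101 and 0.00026).

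Counts of the lists that follow stand beside shares of all genes of 20.1% higher and 19.3% lower at day 5, 16.8% higher and 17.9% lower at day 14, and 26.1% lower in relapse than in AG120. Of 15 measured mitochondrial translation factors and regulators, 7 rose at day 5, 6 at day 14 and 8 were lower in relapse than in AG120, and 0 changed the other way (in relapse 6 were lower without replicates 2 and 3 and 8 without replicates 1 and 4). Lrpprc, which stabilises mitochondrial messenger RNAs, was at 148, 143 and 147 CPM in AG120 day 5 and at 50.1, 50.6 and 61.9 CPM in vehicle day 5. Its groups were far apart, and it rose by 1.43 ± 0.15 (SE, adjusted p = 1.1e-06). The initiation factor Mtif2 rose by 1.08 ± 0.15 and the elongation factor Gfm1 by 1.02 ± 0.22 (log2, SE, adjusted p = 3.65e-05 and 0.00134), whereas Mtfmt, which formylates the initiator tRNA, was at 0.01 ± 0.23 (adjusted p = 0.975).

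Of 27 genes for assembly of the ribosome and modification of its RNA, 8 rose at day 5 and 0 fell, and 8 rose and 1, the RNA methyltransferase gene Nsun4, fell at day 14. Noa1, a GTPase for small subunit assembly, was at 39.0, 27.9 and 35.6 CPM in AG120 day 5 and at 14.2, 13.5 and 12.1 CPM in vehicle day 5, and rose by 1.37 ± 0.21 (SE, adjusted p = 9.2e-05). Eral1, the RNA chaperone of the small subunit, differed between the days: it was at 15.2 and 17.2 CPM in AG120 day 14 against 1.76 and 3.04 CPM in vehicle day 14, and at 4.88, 5.88 and 3.99 CPM in AG120 day 5 against 3.27, 2.54 and 4.07 CPM in vehicle day 5. The change was 2.75 ± 0.33 at day 14 and 0.57 ± 0.27 at day 5, and the difference of 2.17 ± 0.43 passed (SE, adjusted p = 0.0243).

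Malsu1, which keeps the subunits from joining early, was lower in relapse than in vehicle. It was at 12.5, 9.44, 13.3 and 14.4 CPM in relapse, against 21.6 to 23.4 CPM in the 5 vehicle libraries, without overlap, and fell by 0.84 ± 0.12 on the log2 scale (SE, adjusted p = 0.00499). The change was −0.69 without relapse replicates 2 and 3 and −0.95 without replicates 1 and 4. Of 20 enzymes and cofactors of mitochondrial tRNA charging, 10 rose at day 5, 6 at day 14 and 0 fell. In relapse against AG120, 12 of the 20 were lower and 1, Qrsl1, a subunit of the amidotransferase, higher, against 9 lower and 1 higher without replicates 2 and 3 and 12 lower without replicates 1 and 4. Of 10 genes for upkeep and transcription of mitochondrial DNA, 4 rose and 1 fell at day 5, and 3 rose and 0 fell at day 14.

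Products and partners of the ribosome can be set beside these genes. Of 11 measured messenger RNAs of mitochondrial DNA, 8 rose at day 5 and 8 at day 14, with medians of 0.73 and 0.82, and 8 were lower in relapse than in AG120 (8 without relapse replicates 2 and 3, 9 without replicates 1 and 4). Of the 2 mitochondrial ribosomal RNAs, 1 rose at day 5 and 2 at day 14. Of 78 measured nuclear subunits of the respiratory chain, 28 rose and 1 fell at day 5 and 11 rose and 1 fell at day 14, with medians of 0.35 and 0.20. The share that rose was 35.9% at day 5 and 14.1% at day 14, where 20.1% and 16.8% of all genes rose. Of 82 measured cytosolic ribosomal protein genes, 5 rose and 1 fell at day 5 and 1 rose and 4 fell at day 14, with medians of 0.08 and −0.01. The counts and medians are values side by side, and the differences between lists were not tested.

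**Figure D5:**
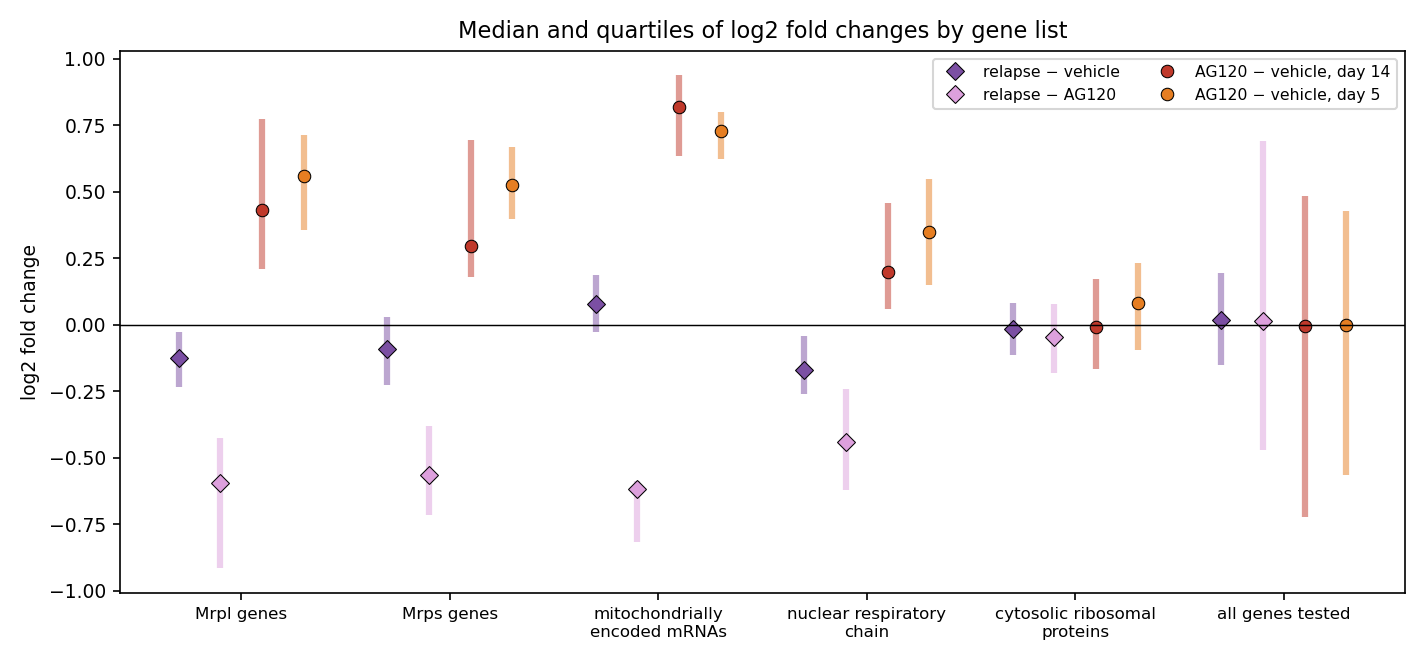
Median (points) and quartiles (bars) of the log2 fold change (y axis) for Mrpl genes, Mrps genes, mitochondrially encoded messenger RNAs, nuclear respiratory chain genes, cytosolic ribosomal proteins and all genes tested, in relapse against vehicle and AG120 (diamonds) and AG120 against vehicle at days 14 and 5 (circles). The medians of Mrpl and Mrps genes are 0.43 and 0.30 at day 14 and 0.56 and 0.53 at day 5, with TMM scaling (that of Mrps genes at day 14 was −0.0785 with library totals alone), whereas those of cytosolic ribosomal proteins are −0.01 and 0.08.

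Regulators known for genes of mitochondrial proteins did not move together. Of 8 measured, 4 rose at day 5 (Myc, Gabpa, Ppargc1b and Pprc1) and 1, Gabpb1, fell, and at day 14 Ppargc1b and Pprc1 rose and Gabpb1 fell. Myc was at 15.5 and 11.4 CPM in AG120 day 14 against 17.1 and 16.3 CPM in vehicle day 14, and at 21.0, 30.6 and 24.8 CPM in AG120 day 5 against 12.2, 7.07 and 9.68 CPM in vehicle day 5. It was thus higher than vehicle at day 5, by 1.40 ± 0.22 (SE, adjusted p = 8.7e-05), and not at day 14 (−0.33 ± 0.28, adjusted p = 0.383), and this difference of −1.74 ± 0.35 passed (SE, adjusted p = 0.0272). Nrf1, Yy1 and Esrra passed at neither day.

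Many of these genes start beside another gene. A protein-coding gene on the opposite strand started within 1000 bases of 33 of the 78 (42.3%), against 10.8% of the 21896 protein-coding genes of the table. Of the 31 partners tested, 4 rose and 3 fell at day 5 (12.9% and 9.68%, against 20.1% and 19.3% of all genes). In 2 pairs both genes rose, and in 2 the ribosomal gene rose and the partner fell. Tcp1, a chaperonin subunit that shares its start region with Mrpl18, rose by 0.65 (adjusted p = 0.00202) where Mrpl18 rose by 0.60 (adjusted p = 0.0133). Klc4 fell by 1.09 beside Mrpl2, which rose by 0.64, and Zfp189 fell by 0.84 beside Mrpl50, which rose by 0.83. Wdfy1 fell by 1.34 beside Mrpl44, which was at −0.15 (edgeR, log2). These partners were named after their values were seen. Exons of Tcp1 overlap those of Mrpl18, and exons of Wdfy1 overlap those of Mrpl44, on opposite strands. Whether counting used strand is not given, so the counts within each of these pairs may not be separate.

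Overlaps and copies limit what can be assigned to a gene. Exons of 28 of the 78 overlap another gene on the opposite strand and those of 8 another gene on the same strand, and 11 have a 3′ end that is nearly identical to part of another gene. These are Mrpl23, Mrpl24, Mrpl30, Mrpl36, Mrpl48, Mrpl53, Mrps5, Mrps10, Mrps18b, Mrps25 and Mrps34, whose values are uncertain to that extent. For Mrpl24, Mrpl53, Mrps25 and Mrps34 the match is a gene they overlap, not a copy elsewhere. Mrps18b matched both a gene it overlaps and another gene. Of the 41 with no overlap and no such 3′ end, 29 rose at day 5 and 14 rose at day 14. In relapse 31 of them were lower than in AG120. Their median log2 fold changes were 0.58, 0.41 and −0.56.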

How the data were processed

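QuantSeq 3′ libraries of 14 sorted samples were compared by group. The values are raw read counts per gene as deposited by the authors. Per the submitters' processing notes, the tools were bcl2fastq 2.17.1.14, cutadapt 1.14, HISAT2 2.1.0, featureCounts of Subread 1.6.3, R 3.6.2, limma 3.42.2 and edgeR 3.28.1, with build mm10. The use of strand, of reads that map to several places and of molecular identifiers is not given in the sources used here. Gene names came from GENCODE vM21, which named 52489 of 52636 identifiers.

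Genes with a minimum count of 10 in enough libraries (filterByExpr) were kept, 11994 in all. Libraries were scaled by TMM and fitted together with 1 coefficient per group (edgeR 4.0.16, R 4.3.3, quasi-likelihood test, Benjamini-Hochberg over all genes tested, threshold 0.05). Ribosomal RNA models stayed in the library totals, and total counts were 4995738 to 8691708 per library, of which the 78 genes held 6932 to 16650. DESeq2 1.42.0, limma-voom (limma 3.58.1), other scalings and filters, equal depth, a replicate block and left-out libraries were the alternatives. The test was tried on simulated data. Copies of 3′ ends were searched with blastn 2.17.0 (at least 150 of the last 200 bases at 95% identity or more).

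Named genes are those with the largest and smallest changes and smallest adjusted p in each comparison, and genes fixed for their roles; others, such as Mrpl10, Mrpl18, Mrpl23, Mrpl44, Mrps6 and Mrps23, were chosen after their values were seen. The genes and lists were chosen with earlier results of these data known. No pair of libraries of a group differed by as little as sampling noise, with a chi-square per degree of freedom of 1.87 to 17.6.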

Additional observations from a re-analysis of the deposited data

Results flagged for a closer look

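Mrps27 in relapse had 1 library far from the others. Its levels were 2.08, 1.96, 1.79 and 3.60 CPM in replicates 1 to 4, and the gap from replicate 4 to the next was 0.84 of the group's range, above Dixon's critical value of 0.829 for 4 samples. The counts behind these values were 11, 11, 13 and 30. Of 33 genes examined in this way, 1 stood out, and chance gives about 1 in 20.

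The response of Eral1 to AG120 differed between the days by 2.17 ± 0.43 log2 units, day 14 effect minus day 5 effect (edgeR's quasi-likelihood test, adjusted p = 0.0243). That of Myc differed by −1.74 ± 0.35 log2 units (adjusted p = 0.0272), with a change of −0.33 at day 14 and 1.40 at day 5.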

How the results depend on the processing

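Single values under 27 alternatives were followed for the genes named by rule in each comparison, not for all 78 genes. Those are the genes with the largest or smallest changes or smallest adjusted p, and those fixed for their roles. Of these 2538 values, 2298 kept their direction and their side of the threshold, and 120 with no call on either side differed in sign. A call was lost in 101 and gained in 18, and 1 reversed. With library totals alone, 5 genes rose at day 5, 2 rose at day 14 and 26 were lower in relapse than in AG120. Of all genes, 34.2%, 28.8% and 45.2% passed in either direction in this setting, each a larger share than among the 78 genes. That scaling moved the median of all genes to −0.38 at day 5, −0.39 at day 14 and 0.22 in relapse against AG120, and relative to it the medians of the 78 genes were 0.53, 0.43 and −0.61. Under it Mrps30 was at −0.0196 at day 5 and the median of Mrps genes at day 14 was −0.0785. Leaving out 1 library gave 27 to 48 genes higher at day 5 (27 without vehicle day 5 replicate 1), 9 to 34 at day 14 (9 without AG120 day 14 replicate 2) and 42 to 62 lower in relapse than in AG120. Fitted on the groups compared alone, 1 gene was higher and 1 lower in the difference between the days, where 7.43% of all genes passed. Settings chosen after seeing the data left out pairs of relapse libraries. Without replicates 2 and 3, 1 gene was lower at day 14, 1 higher and 1 lower in the difference between days, 4 higher in relapse than in vehicle, and 36 lower and 1 higher in relapse than in AG120. Without replicates 1 and 4, 1 was higher in that difference and 25 were lower in relapse than in vehicle. Of all genes, 6.47% passed the difference between the days without replicates 2 and 3 and 5.01% without replicates 1 and 4. The cause of these changes was not tested.

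Calls kept under every alternative were 5 of 45 at day 5 (Mrpl9, Mrpl41, Mrpl52, Mrps5 and Mrps22), 2 of 28 at day 14 (Mrpl9 and Mrpl52) and 26 of 59 in relapse against AG120. With a replicate block, 41 genes rose at day 5 and 27 at day 14, 59 were lower in relapse than in AG120, and 0 passed in relapse against vehicle or between the days. Of all genes, 39%, 34.4%, 51.4%, 0.133% and 0.9% passed in either direction in these comparisons. Little sign of pairing by replicate number was seen: of 23 same-numbered pairs, 2 had a correlation of deviations over 0.1. Pairs with different numbers were not compared, so this cannot exclude pairing. The median SE of a log2 fold change at day 5 was 0.197 for the 39 genes with 270 to 1806 counts and 0.171 for the 39 with 1814 to 11778, and at day 14 it was 0.247 and 0.214.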
